A study of Mus musculus with 9 samples.

Results

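Lef1 and Tcf7 are 2 of the genes that encode the TCF/LEF transcription factors, and the protein of Tcf7 is TCF1, one of the factors immunoprecipitated in these libraries. They were described here across all 9 libraries of a chromatin immunoprecipitation sequencing (ChIP-seq) study of mouse cells on the way to primordial germ cell-like cells. The members were the deposited windows of 2 kb, stepping by 1 kb, that lay wholly within an interval of 180 kb on chromosome 3 from 130780000 to 130960000 for Lef1 and of 90 kb on chromosome 11 from 52040000 to 52130000 for Tcf7, in coordinates of the mouse build mm9. This gave 178 windows for Lef1 and 88 for Tcf7, 266 of 2654924 in all. The intervals and the sites within them were chosen by the measured TCF1 and 24 h SMAD1 values, which were high there, so the values of those libraries at those sites are given as a description with no test.

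TCF/LEF factors bind DNA through a shared HMG box and recruit beta-catenin when WNT signalling stabilises it. Without that signal they can recruit Groucho-type corepressors instead. Genes of the family are themselves known as WNT-responsive genes in many tissues, and WNT and BMP signals are both needed for epiblast cells to take the germ cell fate in the mouse.

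All libraries came from cells labelled epiblast-like cells of strain C57BL/6, derived from embryonic stem cells. Per the labels' protocols the cells were then cultured in suspension with leukaemia inhibitory factor, and BMP4 and WNT3A were either added or left out. The labels do not give the cytokines of each library. SMAD1, the transcription factor that carries BMP signals, was immunoprecipitated from the Blimp1-mVenus reporter line (BV) at 12, 24 and 36 h, and from the Prdm14-mVenus reporter line (PV) at 36 h only. TCF1 was immunoprecipitated in BV and T (Brachyury), a T-box factor of the mesoderm, in PV, both with no time in the titles. The inputs, chromatin sequenced with no antibody, were titled PV, BV and BVSC, and the last is labelled as the BV line. Each group was 1 library, so libraries could not be tested against one another, and the intervals below cover counting error only.

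Depth was 14925074 to 43354004 reads in the 6 immunoprecipitated libraries and 42532115 to 134657262 in the 3 inputs. Counts were scaled to a mean of 1 over typical autosomal windows. Enrichment is that scaled value divided by the one of the input of the same line, after 0.5 was added to each, and a window was called where both the enrichment and the scaled value reached 4. Input was sufficient in 177 of the 178 Lef1 windows and in all 88 Tcf7 windows. The window left out, at 130912001, had a mean scaled input of 0.228, below the minimum of 0.25. The inputs were not level with one another over these intervals. At Lef1 their median scaled level was 1.10 for BV, 1.20 for PV and 1.57 for BVSC, and at Tcf7 it was 1.37, 1.26 and 1.15.

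The sequence just before the earliest Lef1 start in the RefSeq promoter table (build GRCm38.p6, chr3:131110047-131110296, plus strand) is shown because Lef1 held the strongest TCF1 window of both genes. Capitals mark CTTTG, the core letters of the element that TCF/LEF proteins read.
Lef1 upstream: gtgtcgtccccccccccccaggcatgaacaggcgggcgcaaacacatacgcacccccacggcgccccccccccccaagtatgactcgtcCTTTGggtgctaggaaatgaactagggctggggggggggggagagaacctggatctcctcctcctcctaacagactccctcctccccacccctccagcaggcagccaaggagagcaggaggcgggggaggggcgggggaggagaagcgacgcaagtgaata
The longer forms CTTTGAT and CTTTGTT, searched on both strands, were in none of the 4 Lef1 and 2 Tcf7 entries of that table, each of 300 bases. They were in 3.73% and 5.85% of its 32851 entries. The core CTTTG, which both contain, was in all 4 Lef1 entries, in neither Tcf7 entry and in 53.9% of all entries. A match is a description of letters, and where these stretches lie relative to the mm9 windows below was not determined, because the table is of another build.

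At the threshold of 4, TCF1 was called in 2 regions of the Lef1 interval and in 1 of the Tcf7 interval. The strongest Lef1 window, at 130808001 to 130810001, held 201 TCF1 reads against 99 in the BV input, an enrichment of 6.78 and a plain ratio of the scaled counts of 10.1 (exact 95% interval 7.87 to 12.9). Its called region ran from 130807001 to 130810001 and ranked 5 among the 40 regions called for TCF1 in the genome. A second Lef1 region was the single window at 130812001 to 130814001, with 129 reads against 111, an enrichment of 4.16 and a ratio of 5.76 (4.43 to 7.49), and it ranked 34 of 40. The Tcf7 region ran from 52096001 to 52099001 and ranked 13 of 40. Its strongest window, at 52097001 to 52099001, held 197 reads against 128, an enrichment of 5.60 and a ratio of 7.62 (6.07 to 9.60). These windows were chosen for their TCF1 values, so the high TCF1 level in both intervals is a description and not a result. The intervals of the ratio at the leading windows overlapped between the genes.

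In all, 3 of the 177 usable Lef1 windows and 2 of the 88 Tcf7 windows were called for TCF1, where 0.00275% of all 2363215 usable windows were called. TCF1 enrichment was 2 or more in 5 Lef1 and 4 Tcf7 windows, where 0.0985% of all usable windows had it. The rule used these values, so nothing is read from these shares. The Lef1 window closest above the threshold was that at 130812001 with 4.16, and the closest below it was its neighbour at 130811001 with 3.65. At Tcf7 they were 52096001 with 4.58 and 52098001 with 3.01. Outside all called windows the median TCF1 enrichment was 1.12 over 158 Lef1 windows and 1.18 over 83 Tcf7 windows. Leaving out the called windows lowers such a median in part by construction. Of the 4 Tcf7 windows at 2 or more, that at 52069001 lay apart from the called region. It held 83 reads against 162 (2.14, ratio 2.54, 1.92 to 3.33).

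**Figure D1:**
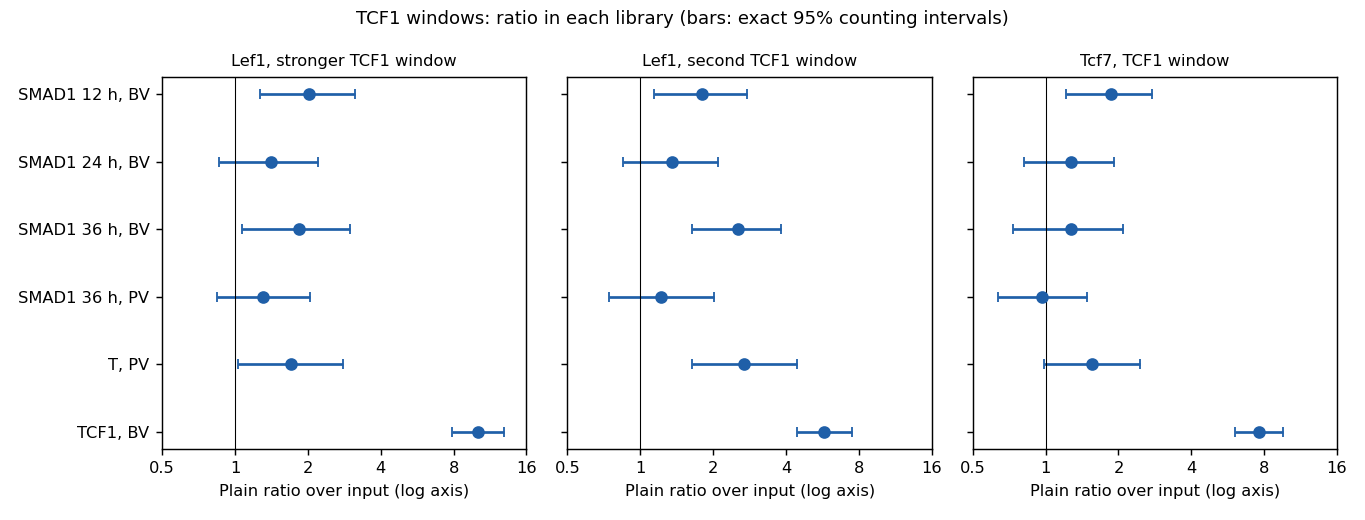
Plain ratio of scaled counts over the input of the same line (log axis) in each of the 6 immunoprecipitated libraries at the TCF1 windows of Lef1 and Tcf7, with bars for exact 95% counting intervals. TCF1 lies at 10.1, 5.76 and 7.62, and the other libraries have ratios of at most 2.68.

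The other factors were lower than TCF1 at the same windows. At the strongest Lef1 window SMAD1 in BV measured an enrichment of 1.65 at 12 h, 1.26 at 24 h and 1.53 at 36 h. SMAD1 in PV measured 1.21 there, and T measured 1.48. At the Tcf7 window the values were 1.59, 1.19, 1.19 and 0.98 for SMAD1 in the same order and 1.41 for T. At the second Lef1 window, 130812001, T measured 2.07 and SMAD1 in PV 1.14, and the BV libraries of SMAD1 had 1.54 (12 h), 1.24 (24 h) and 2.02 (36 h). The interval of the ratio lay above 1 at all 3 windows for SMAD1 at 12 h, with lower bounds of 1.27, 1.14 and 1.22. For SMAD1 at 36 h in BV it did at both Lef1 windows, with lower bounds of 1.07 and 1.64, and for T likewise, with 1.03 and 1.64. For SMAD1 at 24 h and for SMAD1 in PV it included 1 at all 3. Median enrichment over the Lef1 windows was itself above 1, at 1.08 for SMAD1 at 12 h, 1.09 at 36 h in BV and 1.10 for T. Scaled input at 130808001 was 0.88 in BV and 1.59 in BVSC, beside Lef1 medians of 1.10 and 1.57. The share of all windows with an interval above 1 was not counted, and how far input level set these ratios was not tested. No window of either interval was called for T, for SMAD1 in PV, or for SMAD1 at 12 h or 36 h in BV. Of all usable windows, 0.0456% were called for T, 0.00516% for SMAD1 in PV, and 0.0091% and 0.000889% for SMAD1 at 12 h and 36 h in BV.

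Between and beside the TCF1 regions of Lef1, T and SMAD1 rose modestly. The rule for TCF1 windows did not use these libraries. The window at 130813001, however, is 1 of those high at 24 h alone, which had to be below 1.5 in log2 enrichment in T and in the other SMAD1 libraries. T had an enrichment of 2 or more in 4 overlapping windows from 130810001 to 130815001, highest at 130811001 with 52 reads against 36 in the PV input (enrichment 2.30, ratio 2.93, 1.88 to 4.61). Such a value was found in 0.421% of all usable windows, and since the 4 windows overlap they are 1 place. SMAD1 at 12 h reached 2 in 1 Lef1 window, at 130809001, with 41 reads against 92 (2.43, ratio 3.31, 2.23 to 4.83), where 0.155% of all usable windows did. SMAD1 at 36 h in BV reached 2.21 in that window with 30 reads (ratio 2.96, 1.89 to 4.51) and 2.02 at 130812001, where 0.0488% of all usable windows reached 2. SMAD1 at 24 h measured 1.63 at 130809001 and SMAD1 in PV 1.08. The BV input was low in the window at 130809001, at 0.82 beside its Lef1 median of 1.10. The PV input was at 1.35 and the BVSC input at 1.52 there, beside Lef1 medians of 1.20 and 1.57. Over the PV and BVSC inputs SMAD1 at 12 h measured 1.74 and 1.59 in this window, and SMAD1 at 36 h in BV 1.58 and 1.45. How far input level set these values was not tested, and the BVSC input was higher over the whole interval. T at 130811001 measured 1.77 over the BVSC input and 1.90 over the BV input. SMAD1 in PV reached 2 in no window of either interval, where 0.05% of all usable windows did. At Tcf7 no window reached 2 in T or in SMAD1 at 12 h or 36 h.

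SMAD1 at 24 h behaved otherwise. It had called windows in both intervals that no other library shared, 16 of 177 at Lef1 and 3 of 88 at Tcf7, where 0.00402% of all usable windows were called in this library. It reached 2 in 16 Lef1 and 10 Tcf7 windows, where 0.0319% of all usable windows did. All 19 were below 1.5 in log2 enrichment in each of the other 5 immunoprecipitated libraries, a pattern held by 39 windows, or 0.00165%, of the genome. The rule used these values, and they are a description. Whether the reads came from chromatin bound by SMAD1 or from other DNA in that library, and whether they lie on exons, was not tested, so every 24 h value below is a read count over input and not a measure of binding. Lef1 held 4 such regions. The strongest window, at 130813001 to 130815001, had 652 reads against 76 in the BV input, an enrichment of 29.0 and a ratio of 49.7 (39.2 to 63.9). In that window SMAD1 in BV measured 1.83 at 12 h with 25 reads and 1.66 at 36 h with 18, and SMAD1 in PV measured 1.36 with 36. T measured 2.09 there with 31 reads and TCF1 1.81 with 37. The interval of the ratio lay above 1 for SMAD1 at 12 h and 36 h in BV, with lower bounds of 1.49 and 1.21. It did so too for T and TCF1, with 1.67 and 1.58, and included 1 for SMAD1 in PV. Scaled input was low in this window, at 0.68 in BV and 0.60 in PV, beside Lef1 medians of 1.10 and 1.20.

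The other Lef1 regions lay at higher coordinates in the interval. The window at 130896001 reached 18.6 with 629 reads against 143, that at 130886001 reached 13.7 with 408 against 120, and that at 130902001 reached 8.51 with 205 against 90. Over these 3 windows the other 5 immunoprecipitated libraries measured between 0.82 and 1.36, and no other SMAD1 library had a ratio whose interval left 1. At Tcf7 the strongest window, at 52070001, reached 6.75 with 271 reads against 185 (ratio 8.49, 7.02 to 10.3), and the second region, at 52095001, reached 4.49 with 105 against 92 (6.61, 4.95 to 8.85). At 52070001 SMAD1 in BV measured 0.73 at 12 h and 0.91 at 36 h, and SMAD1 in PV measured 0.88. At 52095001 it measured 1.08, 1.60 and 1.17. The Lef1 windows were clear of the threshold, with 4.55 for the lowest called and 1.91 for the highest not called. At Tcf7 they were not, with 4.49 at 52095001 called and 3.80 at 52074001 not called.

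Overlapping windows can be solved into bins of 1 kb, and at this resolution TCF1 and the 24 h signal fell into separate bins. In 8 libraries no bin came out below 0, while in the BVSC input 47.4% did, and that input was not used for bins. The share of all bins in the genome that pass the calling rule was not counted, so the counts of bins below are a description. TCF1 had 3 bins past the calling rule at Lef1. They started at 130808001 with 142 reads against 54 in the BV input (enrichment 8.91), at 130809001 with 59 against 45 (4.38) and at 130812001 with 112 against 73 (5.77). At Tcf7 the 2 TCF1 bins started at 52097001 with 114 reads against 76 (5.70) and at 52098001 with 83 against 52 (5.48). SMAD1 at 24 h measured 1.18 to 1.48 in the Lef1 bins and 1.15 to 1.22 in the Tcf7 bins, and none of these 5 bins had a 24 h ratio whose interval left 1.

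The 24 h signal fell into 9 bins at Lef1 and 3 at Tcf7. Each passed the calling rule at 24 h and had to be below 1.5 in log2 enrichment in the other 5 libraries. By that rule none could be a TCF1 bin. With no condition on the other libraries, the bins of 4 or more at 24 h were the same 9 and 3. At Lef1 the first 3 bins held 647 reads at 130814001, 149 at 130816001 and 407 at 130818001, with enrichments of 57.2, 7.89 and 25.9. Farther along, bins at 130887001 and 130892001 held 402 and 250 reads, with 24.8 and 16.2. Next came 3 adjoining bins from 130895001 with 94, 238 and 391 reads, and a last one at 130903001 with 198 (15.7). The bins directly beside these, other than each other, lay between 0.63 and 1.55. The bin at 130815001, between the first pair, held 3 reads, and those on either side of 130887001 held 6 and 8. The nearest 24 h bin lay 2 kb from a TCF1 bin in each interval, from 130812001 to 130814001 at Lef1 and from 52097001 to 52095001 at Tcf7. This is why 2 kb windows of the 2 kinds touch at both genes.

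**Figure D2:**
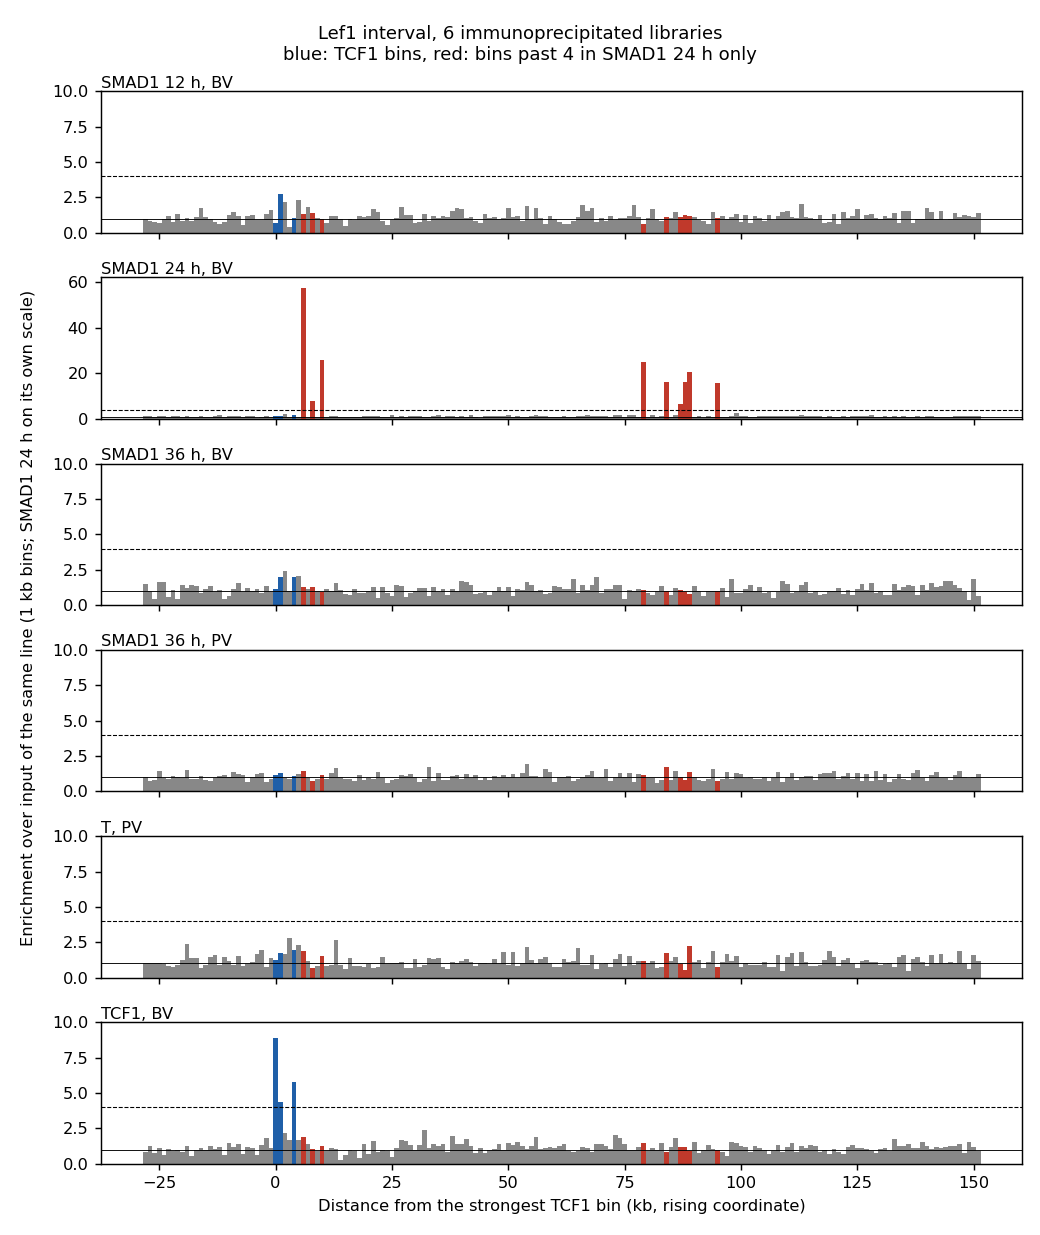
Enrichment over the input of the same line in 180 bins of 1 kb across the Lef1 interval, one panel for each immunoprecipitated library, against distance in kb from the strongest TCF1 bin; the dashed line marks 4, the solid line 1, and the SMAD1 24 h panel has its own scale. The 3 blue TCF1 bins reach 4.38 to 8.91 in the TCF1 panel, and the 9 red bins reach 6.58 to 57.2 at 24 h while they lie between 0.53 and 2.23 in the other panels.

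The same 9 Lef1 bins were required to lie below 1.5 in log2 enrichment in the other 5 libraries. In them SMAD1 measured 0.61 to 1.36 at 12 h, on 4 to 17 reads a bin, and 0.82 to 1.29 at 36 h in BV, on 5 to 13 reads. It measured 0.71 to 1.74 at 36 h in PV, on 15 to 30 reads. No bin had a ratio interval above 1 at 12 h or at 36 h in BV, and 1 of 9 did in PV, at 130892001. T ranged from 0.53 to 2.23 and TCF1 from 0.85 to 1.92, each with 2 bins whose interval lay above 1. T also had 1 bin below 1, at 130896001. How many of all bins had intervals that left 1 was not counted, so nothing is read from these counts. In the strongest 24 h bin, at 130814001, both were raised a little, with 15 T reads (ratio 2.53, 1.11 to 5.93) and 20 TCF1 reads (2.61, 1.44 to 4.59).

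The share of each interval's reads that fell in these bins was taken for each library. The bins were chosen by their 24 h or TCF1 values. High shares in those 2 libraries therefore follow from the choice, and the shares carry no test. The 9 bins are 5% of the Lef1 interval and held 2776 of its 4889 reads at 24 h, or 56.8% (exact 95% interval 55.4 to 58.2). Among the other SMAD1 libraries they held 5.09% at 12 h (4.10 to 6.24) and 4.66% at 36 h (3.61 to 5.90) in BV, and 5.26% in PV (4.59 to 6.01). The BV input had 5.13% there (4.73 to 5.56). At Tcf7 the 3 bins held 20.7% of the reads at 24 h (18.8 to 22.6), against 3.48% at 12 h (2.44 to 4.81), 3.92% at 36 h in BV (2.79 to 5.34) and 3.06% in the BV input (2.66 to 3.50). SMAD1 in PV had 4.51% there (3.69 to 5.45), beside 3.35% in the PV input (2.60 to 4.24), and TCF1 had 4.34% (3.47 to 5.35). The TCF1 bins took 10.6% of the interval's TCF1 reads at Lef1 (9.51 to 11.8) and 10.3% at Tcf7 (8.97 to 11.7), where the BV input had 1.56% and 1.87%. Outside the called windows SMAD1 at 24 h had a median enrichment of 1.12 at both genes, and at 12 h it was 1.07 at Lef1 and 1.08 at Tcf7.

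At Tcf7 the 24 h signal was lower and less sharply bounded than at Lef1. Its highest bin, at 52070001, held 198 reads against 78 (enrichment 11.1), and its neighbours at 52069001 and 52071001 held 30 and 73 reads, with 1.80 and 3.34. A second rise ran over 3 bins from 52073001 with 35, 51 and 68 reads and enrichments of 2.31, 3.11 and 4.59. The bin at 52095001, beside the TCF1 site, stood alone with 102 reads (6.51) between bins of 17 and 3. In all, 9 of 90 Tcf7 bins and 11 of 180 Lef1 bins reached 2 at 24 h, of which 3 and 9 reached 4. The shares of all 1 kb bins that did so were not counted. Of all usable 2 kb windows, 0.0319% reached 2 at 24 h and 0.00402% were called. Each of the 3 Tcf7 bins also had another library whose ratio interval lay above 1. At 52070001 it was TCF1, with 40 reads (enrichment 2.13, ratio 2.54, 1.69 to 3.77). At 52075001 it was SMAD1 in PV, with 46 reads (1.74, ratio 2.03, 1.20 to 3.54). The bin at 52095001 had SMAD1 at 36 h in BV with 19 reads (2.11, ratio 2.57, 1.46 to 4.33) and TCF1 with 26 (1.65, ratio 1.92, 1.17 to 3.06). How many of all bins had such an interval was not counted, so nothing is read from these. Median enrichment over the 90 Tcf7 bins was already 1.25 for SMAD1 at 36 h in BV, 1.17 for TCF1 and 1.08 for SMAD1 in PV.

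**Figure D3:**
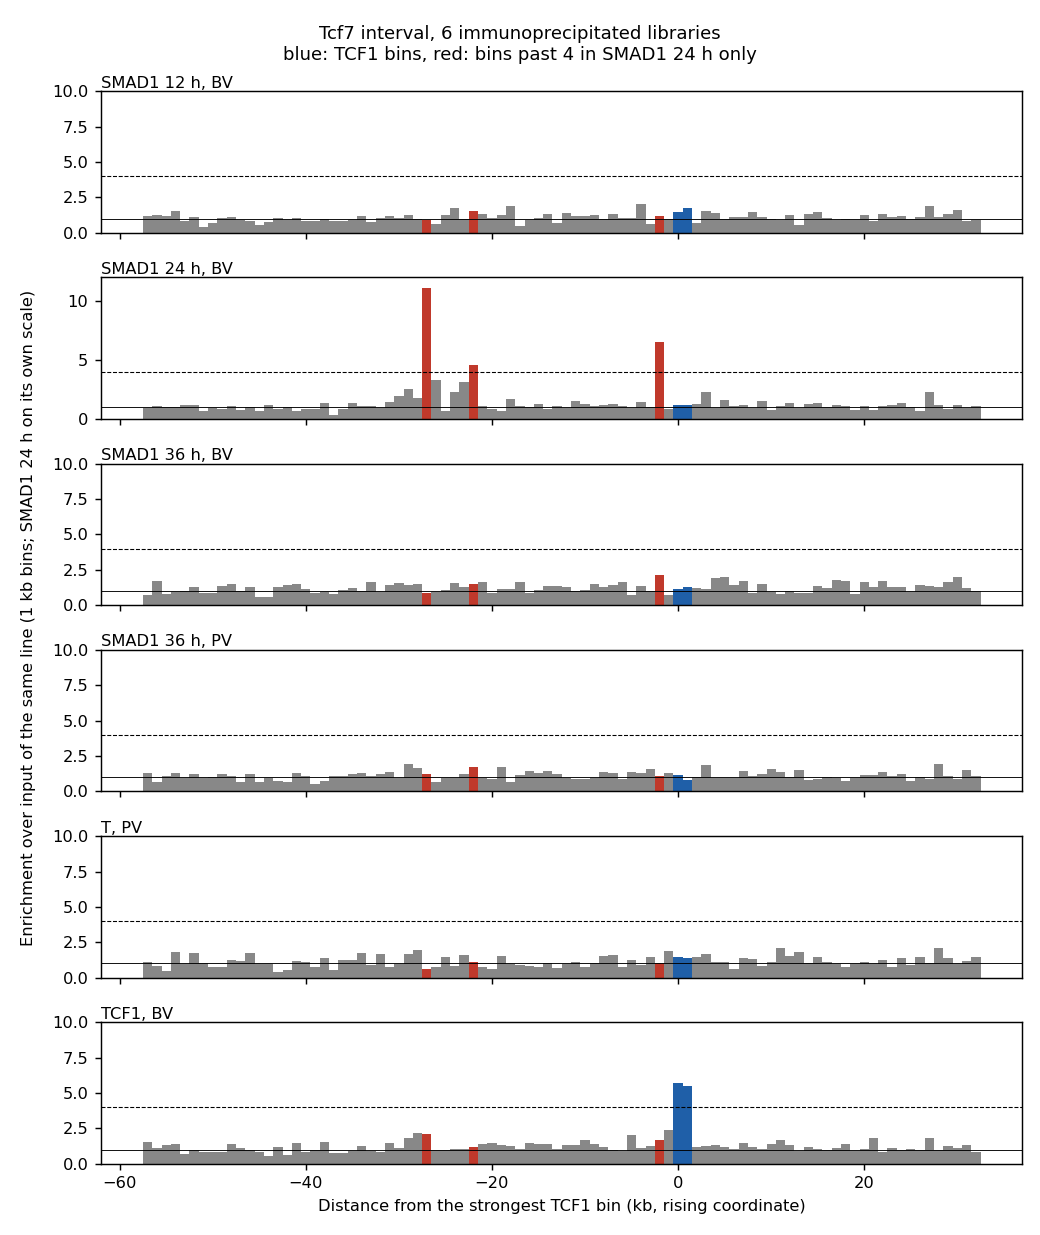
Enrichment over the input of the same line in 90 bins of 1 kb across the Tcf7 interval, drawn as for Lef1, with distance in kb from the strongest TCF1 bin. The 2 blue TCF1 bins reach 5.48 and 5.70 in the TCF1 panel, and the 3 red bins reach 4.59 to 11.1 at 24 h, the rightmost of them 2 kb from the TCF1 site.

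The width of the signal was compared by the share of reads in the highest 1 kb bin of each called region, out of the 3 kb centred on it. In the BV input the same bins had a median share of 33.8% at the Lef1 regions of 24 h and 32.6% at those of Tcf7. At 24 h the share was 98.8% for the Lef1 region at 130813001, 96.6% at 130886001 and 93.8% at 130902001. It was 61.3% for the region at 130891001, where 2 adjoining bins were both high. The Tcf7 regions had 65.8% and 83.6%. The other 34 regions called at 24 h, those shared in part with other libraries, had a median of 61.8% and a range of 42.4 to 95.8%, and the 110 regions called at 12 h had a median of 56.9%. The 7 regions elsewhere in the genome that were high at 24 h only had a median of 97.2%. TCF1 regions had 66.7% and 70.4% at Lef1, where the input had 36.5% and 38.4%. The TCF1 region of Tcf7 had 52.5%, close to the 49.7% of its input. The other 37 TCF1 regions had a median of 72.7%, with an input median of 32.4%. Thus the Lef1 regions with 98.8% and 96.6% lay above the highest of the other 34 regions at 24 h, 95.8%, and of those at 12 h, 94.3%. The Lef1 region with 93.8% lay within both ranges, and the 7 regions elsewhere reached 99.1%. The TCF1 regions of both genes lay within the range of other TCF1 regions, 45.4 to 87.1%. These shares come from the values that chose the regions and carry no test.

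**Figure D4:**
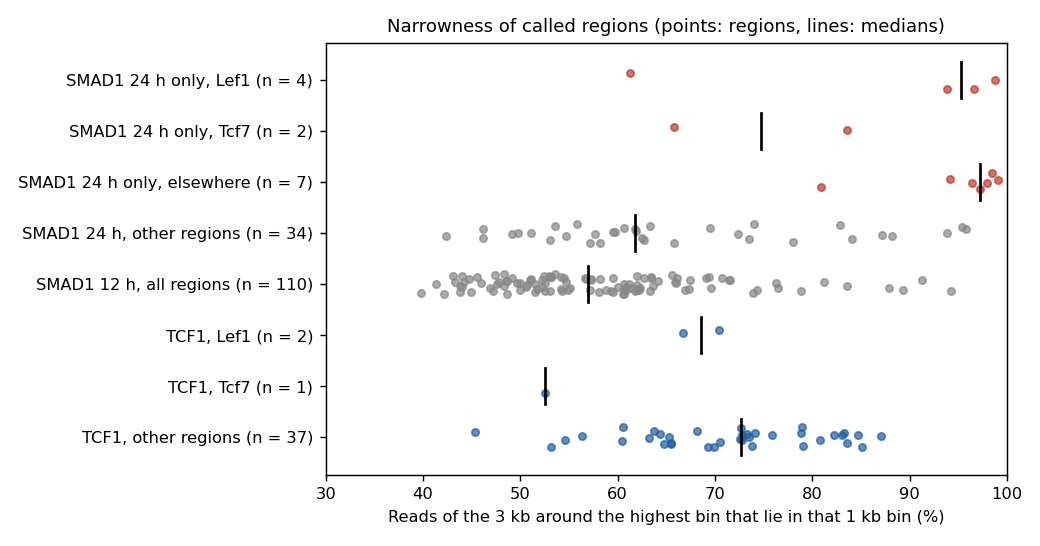
Share of reads (%) in the highest 1 kb bin out of the 3 kb around it, one point per called region and a line at each median, by library and place. Among the 4 Lef1 regions of the 24 h library 3 lie at 93.8% or more, beside a median of 61.8% for the 34 other regions at 24 h.

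Regions elsewhere were ranked by how near their log2 enrichments over the 6 immunoprecipitated libraries came to those of each leading window. For the Lef1 TCF1 window the nearest of the other 39 TCF1 regions were on chromosome 5 at 101103001 (distance 0.49, TCF1 enrichment 5.66), on chromosome 1 at 74634001 (0.50, 6.88) and the Tcf7 window itself (0.56). For the Tcf7 window they were the same chromosome 5 region (0.42), chromosome 3 at 138306001 (0.52, 5.91) and the Lef1 window (0.56). The TCF1 windows of the 2 genes were therefore each among the 3 nearest to the other. Both were chosen for high TCF1, which the distance includes, and only regions called for TCF1 were ranked, so this is a description. For the strongest Lef1 window at 24 h the nearest regions were on chromosome 17 at 35646001 (1.37, with 33.8 at 24 h) and on chromosome 8 at 81880001 and 81873001 (1.55 and 1.68, with 50.2 and 47.7). For the strongest Tcf7 window at 24 h all 3 nearest lay in the same 2 intervals, at Lef1 130902001 and 130886001 and at Tcf7 52095001 (1.31, 1.38 and 1.58). All of these were high at 24 h alone. The windows they were ranked against were themselves chosen as high at 24 h alone, so this too is a description.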

How the data were processed

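The authors deposited 1 table per library of raw read counts per window, to judge from the values, which are whole numbers with unequal totals. The submitters' processing notes name Bowtie 0.12.8 and mm9. How duplicate or multiply placed reads were handled is not given in the sources used here. In 8 tables the windows behave as overlapping sums, in which each read counts in 2 windows, so depth was taken from every other window. The BVSC input could not be solved that way (47.4% of its bins were below 0), and its total may not be its depth.

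Scaling set the mean of each library to 1 over 1977886 autosomal windows, those whose mean input was between percentiles 10 and 90. Usable windows were on autosomes or chromosome X, with a mean of the scaled inputs of 0.25 or more and none of them above 3. Libraries of a line were set over the input of that line, BV or PV. Ratios without a pseudocount carry exact 95% intervals (Clopper-Pearson), computed on how the 2 counts were split. These cover counting error only, since PCR copies of a molecule are not independent reads. Bins of 1 kb were solved from the windows of a chromosome, starting from a bin of 0 reads. Regions are called windows that overlap or adjoin, and a region high at 24 h alone was below 1.5 in log2 enrichment in the other 5 libraries. The calling rule and the bins were tested on simulated data. Python 3.11.15, numpy 2.4.6, pandas 2.3.3 and scipy 1.17.1 were used.

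The genes, intervals and rules were chosen with earlier results of these data known. Beside both genes, the rule named for each leading window the 3 regions nearest in log2 enrichment over the 6 immunoprecipitated libraries. An mm9 annotation was not used here, so exons, start sites and other WNT pathway genes were not placed among the windows. Alternatives were other inputs, pseudocounts, scalings, thresholds, an equal depth and 1 kb bins.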

Additional observations from a re-analysis of the deposited data

Results flagged for a closer look

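At the leading 24 h windows, 4 comparisons between SMAD1 times in BV had enrichment above 1 at 24 h and below 1 at the other time. The difference in log2 enrichment was 4.06 against 12 h at Lef1 130886001 and 4.41 against 36 h at Lef1 130896001. At Tcf7 52070001 it was 3.22 against 12 h and 2.89 against 36 h. These differences were not tested, since each time was 1 library. The windows were chosen as high at 24 h and below 1.5 in log2 enrichment at the other times, so a higher value at 24 h was set by that choice. At the lower time the ratio intervals included 1 in all 4. In the remaining comparisons of leading 24 h windows with 12 h or 36 h in BV, enrichment at the other time was 1.00 to 1.83.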

How the results depend on the processing

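Of 64 values recomputed for 8 results, 50 stayed within the counting interval of the reported value or, for counts, within 1.5 times. Over the BVSC input, TCF1 at the leading Lef1 window measured 4.47 and 1 Lef1 window was called. A pseudocount of 1 gave 5.24 for TCF1 at Lef1, 20.7 for the highest 24 h value at Lef1, and 1 TCF1 window and 1 region high at 24 h alone at Tcf7. A threshold of 3 called 5 TCF1 windows at Lef1. A threshold of 6 called 1 at Lef1 and 0 at Tcf7, and left 1 Tcf7 region at 24 h. Bins of 1 kb gave 8.91 for TCF1 at Lef1, 57.2 and 11.1 for the highest 24 h values at Lef1 and Tcf7, and 7 separate Lef1 regions, as a 1 kb signal is spread over 2 kb in a window. At least 4 Lef1 and 2 Tcf7 regions high at 24 h alone were called with every input, scaling and depth tried. With the PV and BVSC inputs, an alternative chosen after seeing the data, SMAD1 near the Lef1 site stayed below 2, at 1.74 and 1.59 for 12 h and at 1.58 and 1.45 for 36 h. No paired analysis was possible because each group has 1 library, and leaving out a replicate was likewise not possible.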
